A study of Mus musculus with 24 samples.

Results

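Lymphocyte markers were followed in mouse L4 and L5 dorsal root ganglia (DRGs) with and without *Nfil3*, before and after a lesion of the sciatic nerve. The set held 9 genes, chosen by gene name on the array: *Cd3e*, *Cd3g* and *Cd8a* of T cells, *Ncr1*, *Klrk1* and *Nkg7* of natural killer (NK) and cytotoxic cells, and *Gzma*, *Gzmb* and *Prf1* of the cytotoxic granule. They were represented by 14 of 41174 probes (27398 gene names). The working name of the set also mentions B cells, but none of the 9 genes is a B cell gene, so B cell markers were taken from a separate list of 10 genes. RNA of whole ganglia was hybridized to 12 Agilent 4x44K arrays on 3 slides, and each dye channel was read as 1 sample, which gave 24 samples in 6 groups of 4: wildtype (WT) and *Nfil3* knockout (KO) mice, each as control, 2 days and 5 days after the lesion. All were adult males. The KO mice carried a germline deletion, made by crossing mice heterozygous for a floxed *Nfil3* allele (*Nfil3* lox/+) with mice in which a human CMV promoter drives Cre, and backcrossing to C57BL/6J, so every cell type of the body lacked the gene. The WT mice were their littermates. In the lesioned groups the nerve had been cut and rejoined, and the control ganglia came from the side without injury of operated mice, so they are not ganglia of naive animals. The labels do not say which control came from which mouse. A sample was a bulk extract, in which fewer cells of a type and less RNA per cell cannot be told apart.

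NFIL3 is a basic leucine zipper transcription factor that NK cells need in order to develop in the bone marrow, and KO mice are known for having few of them. NK cells and CD8 T cells kill by releasing granules. Perforin, the product of *Prf1*, opens the target cell membrane, and granzymes A and B (*Gzma*, *Gzmb*), which are serine proteases, pass into the cell. *Nkg7* encodes a membrane protein of these granules. *Ncr1* encodes NKp46, the receptor by which mouse NK cells are usually recognised, and *Klrk1* encodes NKG2D, a receptor for stress-induced ligands on both cell types. *Cd3e* and *Cd3g* encode chains of the T cell receptor complex and *Cd8a* the co-receptor of cytotoxic T cells. An uninjured ganglion holds few lymphocytes, and leukocytes are known to enter or expand in it after nerve injury.

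The deleted gene was examined first, as a check of the labels. On its brighter probe *Nfil3* had log2 intensities of 8.44 to 11.09 in the 12 WT samples. In the KO samples it had 2.82 to 7.59. It was well above background in 5 KO samples, 1 control, 2 of day 2 and 2 of day 5. Among the KO samples of day 2 the highest value was 6.23, and among those of day 5 it was 5.81. The highest value of all KO samples, 7.59, belonged to the library labelled KO control replicate 4, for which another label field gives day 5. The other 3 KO controls had 2.94 to 4.37. This library also stood apart for *Gzmb* and *Ncr1*, and the main differences of these genes, *Gzma* and *Nkg7* that use the KO controls are also given without it. The tissue labels speak of DRG neurons, and all 7 neuron markers of a fixed list were well above background in all 24 samples, as were 7 of 7 markers of satellite glia and Schwann cells.

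Whether a marker could be measured at all differed between the genes. Feature Extraction, the scanner software, marks a spot as well above background when it is clearly brighter than its surroundings. *Cd3e* (probe A_51_P455681) and *Nkg7* (A_52_P24447) carried this mark in all 24 samples and *Cd8a* (A_52_P150547) in 23. *Gzmb* had it in 9 samples, *Gzma* and *Prf1* in 8, *Klrk1* in 7, and *Cd3g* and *Ncr1* in 1. So the receptor that defines mouse NK cells was at the background level in 23 of 24 samples, in both genotypes, and its level in KO mice could not be set against a measured WT level. The 1 sample with *Ncr1* above background was a KO sample of day 2. *Prf1* was above background in 5 WT and 3 KO samples. Of the 12 *Gzma* values from WT mice 6 were above background, and of the 12 from KO mice 2.

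Probes of the same gene did not behave alike. The second *Cd3e* probe (A_52_P86404), the second *Klrk1* probe (A_52_P272778) and the *Cd8a* probe A_52_P443334 were well above background in 0 of 24 samples. The last of these is printed on 10 spots of each array. The spread of its 10 spots within a sample, a measure of the technical error of a dim probe, had a median SD of 0.52 on the log2 scale. The *Cd8a* probe A_51_P345121 passed in 2 samples, both of day 5. The second *Nkg7* probe (A_51_P499195) passed in 21. The bright *Cd8a* probe lies on chromosome 6 from 71323885 to 71323944 and the bright *Cd3e* probe on chromosome 9 from 44807254 to 44807313 (mm9, the build of the array annotation). The array annotation assigns both to RefSeq mRNAs of these genes. The *Cd3e* and *Cd8a* values below are those of these bright probes.

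**Figure D1:**
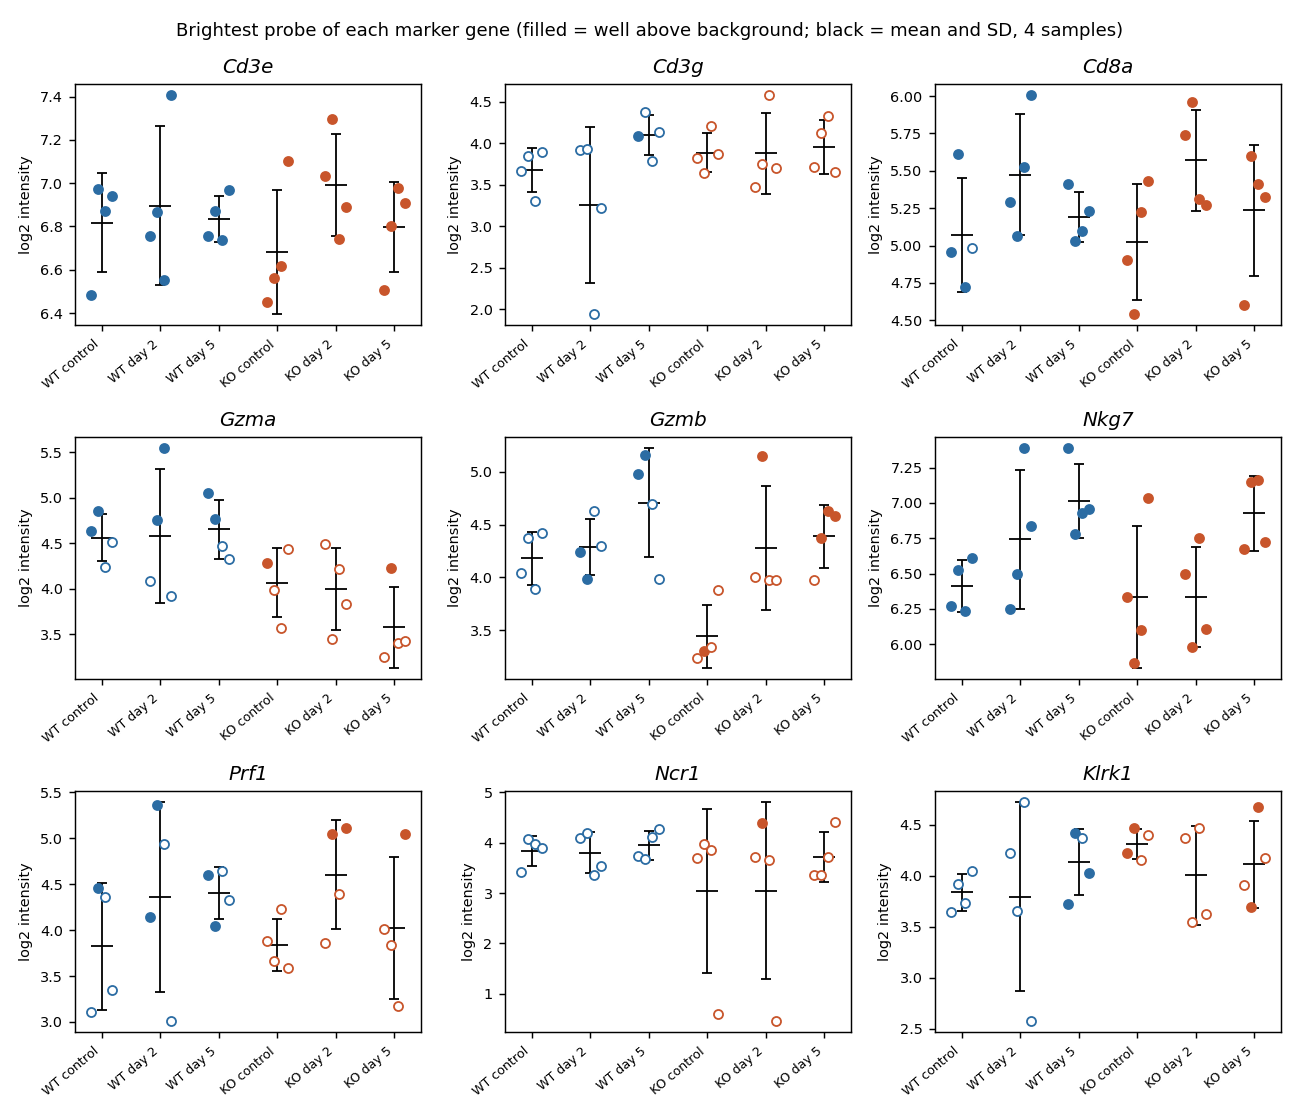
Log2 intensity (y axis) of the brightest probe of each of the 9 genes in the 6 groups (x axis), WT in blue and KO in orange, 1 point per sample and filled where the probe was well above background, with the group mean and SD in black. Each panel has its own y scale. All *Cd3e* and *Nkg7* points are filled, while *Ncr1* and *Cd3g* have 1 filled point each.

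After the lesion 2 of the 9 genes, *Gzmb* and *Nkg7*, were higher at day 5, and the T cell receptor genes did not pass. In the F test of both days against control, averaged over the genotypes, 3 of the 14 probes passed an adjusted p of 0.05, against 25.2% of all probes. They were those of *Gzmb* (adjusted p = 0.0183), *Nkg7* (0.0392) and the second *Klrk1* probe (0.0463). The third was never above background, and neither day on its own passed for it (adjusted p = 0.154 at day 5), so no level or direction is given. At day 5 alone 2 of 14 probes passed, both higher, against 22.2% of all probes, and at day 2 alone 0 of 14, against 21.2%. The median difference of the 14 probes at day 5 was 0.21 on the log2 scale, beside -0.04 over all probes, and 11 of the 14 were positive, beside 45.2% of all probes. At these shares the markers were not called more often than probes in general.

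*Gzmb*, for granzyme B, was the member with the smallest p for the lesion. Its log2 intensities in WT mice were 4.04, 4.37, 3.89 and 4.42 in control DRGs, 4.24, 3.98, 4.63 and 4.30 at day 2, and 4.98, 5.16, 4.70 and 3.99 at day 5. In KO mice they were 3.24, 3.30, 3.34 and 3.88 in control DRGs, 4.001, 5.15, 3.97 and 3.97 at day 2, and 3.97, 4.38, 4.63 and 4.58 at day 5. The KO controls were the lowest group, and all KO samples of both days lay above all 4 of them. This order held for 6.37% of all probes at day 2 and 8.45% at day 5. In WT mice the day 5 samples overlapped with the controls through 1 sample at 3.99. The day 5 difference averaged over the genotypes was 0.74 (SE 0.19, limma adjusted p = 0.00707), which is 1.67-fold, and 0.81 without KO control replicate 4. Within KO mice it was 0.95 (SE 0.27, adjusted p = 0.0251), or 1.09 without that library (adjusted p = 0.0187), and within WT mice 0.53 (SE 0.27, adjusted p = 0.258). That the rise differed between the genotypes was not shown, since the interaction had an adjusted p of 0.99998 and an unadjusted p of 0.185. At day 2 the difference within KO mice was 0.84 (adjusted p = 0.0521), and without the library labelled KO control replicate 4 it was 0.97 (adjusted p = 0.0380). Without KO day 2 replicate 2, the sample at 5.15, it was 0.55.

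These *Gzmb* values lie close to the background. The probe was well above it in 0 of 4 WT controls and 1 of 4 KO controls, in 2 of 4 WT and 1 of 4 KO samples of day 2, and in 2 of 4 WT and 3 of 4 KO samples of day 5. Without any background correction the averaged day 5 difference was 0.18 (adjusted p = 0.0571), while under the other 13 alternatives it passed. Its size depended on the processing and ran from 0.17 to 1.19 over the 14 alternatives. The call within KO mice at day 5 held in 9 of 14 alternatives and in 18 of 24 fits with 1 sample left out. Within slides, day 2 or day 5 minus control was positive in 5 of 5 KO comparisons (0.60 to 1.01) and in 3 of 4 WT comparisons (-0.05 to 0.80).

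*Nkg7*, the granule membrane protein, could be measured in every sample. In WT mice its log2 intensities were 6.27, 6.53, 6.24 and 6.61 in control DRGs, 6.25, 6.50, 7.38 and 6.83 at day 2, and 7.39, 6.78, 6.93 and 6.95 at day 5. In KO mice they were 6.34, 5.87, 6.10 and 7.03 in control DRGs, 6.49, 5.98, 6.75 and 6.11 at day 2, and 6.67, 7.15, 7.16 and 6.72 at day 5. All 4 WT samples of day 5 lay above all 4 WT controls, an order held by 8.31% of all probes. In KO mice 1 control, replicate 4 at 7.03, lay within the range of day 5. The averaged day 5 difference was 0.59 (SE 0.18, limma adjusted p = 0.0184), or 1.51-fold, and it was of like size in WT (0.60) and KO mice (0.59), where neither passed alone (adjusted p = 0.141 and 0.156). Without KO control replicate 4 the KO difference was 0.82 (adjusted p = 0.0341). The second probe gave 0.37 at day 5 (SE 0.22, adjusted p = 0.276), in the same direction. At day 2 the averaged difference was 0.16 (adjusted p = 0.590). Leaving out each of the 24 samples in turn kept the day 5 difference between 0.52 and 0.71, the latter without KO control replicate 4, with adjusted p from 0.00320 to 0.0451, but the F test passed in 12 of these 24 fits only. Within slides the day 5 difference was 0.88 and 0.44 in WT mice and 0.70 and -0.10 in KO mice, the last on the slide where replicate 4 was the only KO control.

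The remaining members did not pass for the lesion. *Cd8a* came closest at day 2, with 0.47 (SE 0.18, adjusted p = 0.0645). Its day 2 samples had 5.06 to 6.01 in WT and 5.27 to 5.96 in KO mice, its controls 4.73 to 5.61 and 4.54 to 5.43, so the groups overlapped in both genotypes. The call depended on the setting: it passed in 6 of 14 alternatives and in 4 of 24 fits with 1 sample left out, with adjusted p from 0.0317 to 0.148 over the alternatives and from 0.0273 to 0.136 over the left-out fits. The other *Cd8a* probes gave -0.06 and -0.42 at day 2. *Prf1* differed by 0.65 at day 2 (SE 0.32, adjusted p = 0.170) and by 0.38 at day 5. *Cd3e* differed by 0.07 at day 5, with a 95% interval of -0.20 to 0.33, the narrowest among the brightest probes of the 9 genes. *Cd3g*, *Klrk1* and *Ncr1* differed by 0.24, 0.05 and 0.39 at day 5 and *Gzma* by -0.20, all mostly from values at the background. The interval of *Ncr1* reached from -0.64 to 1.42, and its difference was -0.013 without KO control replicate 4. That of *Gzma* was -0.14 without this library.

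Within WT mice 0 of 14 probes passed at day 2, against 9.99% of all probes, and 0 at day 5, against 12.9%. In KO mice 0 passed at day 2, against 10.9%, and 1 at day 5, that of *Gzmb*, against 11.7%. At an unadjusted p of 0.05, 0 and 1 probes passed in WT mice at day 2 and day 5, and 2 and 2 in KO mice, against 21.7% and 23.3% of all probes in WT mice and 23.8% and 22.4% in KO mice.

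**Figure D2:**
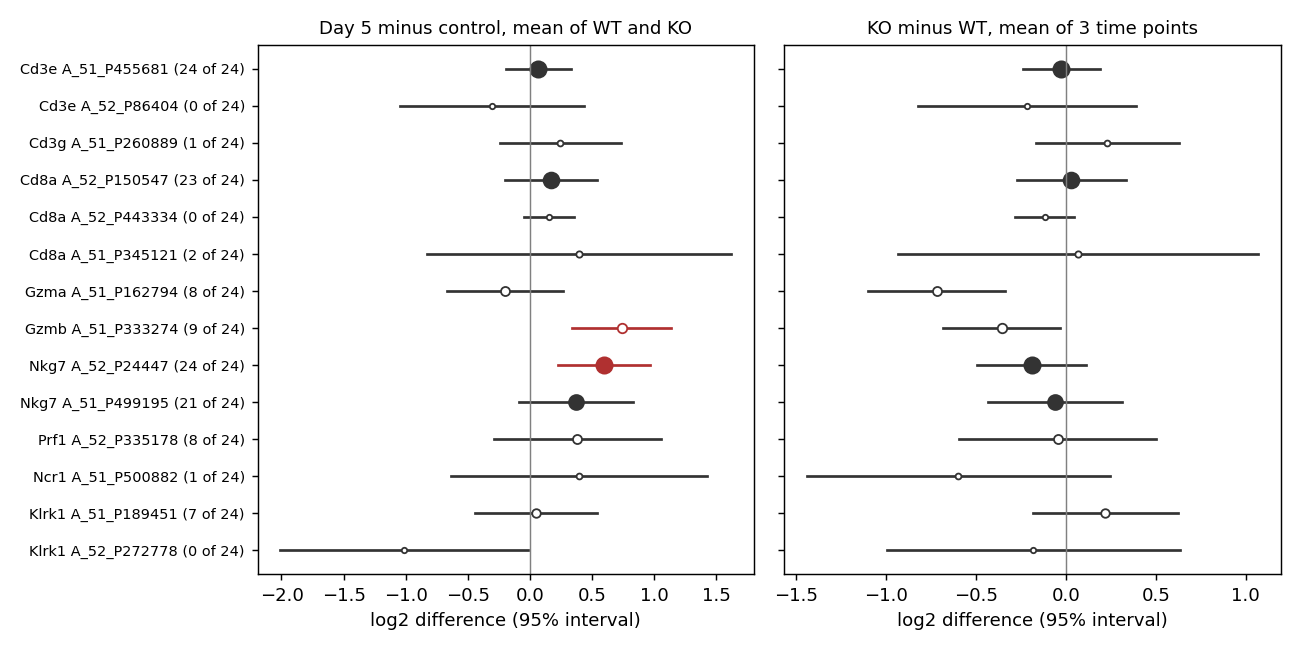
Log2 difference with its 95% interval (x axis) for each of the 14 probes (y axis, with the number of samples in which it was well above background), for day 5 minus control on the left and KO minus WT on the right. Points grow with that number, are filled where it was at least 12, and are red where the adjusted p was under 0.05, which held for *Gzmb* and *Nkg7* at day 5 and for none of the 14 in KO minus WT.

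Deletion of *Nfil3* gave no call among the markers. KO against WT passed for 0 of 14 probes in the control ganglia, on either day after the lesion and averaged over the 3 time points, and the time*genotype interaction for 0 of 14. The same tests called 0%, 0.0121%, 0.0121%, 0.00729% and 0% of all probes. In the control ganglia they did not call even the deleted gene. There the brighter *Nfil3* probe differed by -3.98 (limma adjusted p = 0.9999) and the other by -3.22 (adjusted p = 0.258). The brighter *Nfil3* probe passed at day 2 (adjusted p = 0.00819), at day 5 (0.00259) and averaged over time (5.88e-06), but not for the interaction (0.99998). At an unadjusted p of 0.05 limma passed 1, 0, 1, 2 and 0 of the 14, and of all probes 1.76%, 3.83%, 2.47%, 3.42% and 2.23%. The median of the 14 probes for KO minus WT was -0.09 averaged over time, beside 0.02 over all probes. A p that misses the threshold does not show equal levels: the 95% intervals of KO minus WT were -0.24 to 0.19 for *Cd3e*, -0.27 to 0.33 for *Cd8a* and -0.49 to 0.11 for *Nkg7*, but -1.44 to 0.24 for *Ncr1*. The *Ncr1* difference was -0.60, and -0.32 without KO control replicate 4. That of *Nkg7* was -0.19, and -0.27 without this library.

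*Gzma*, for granzyme A, had the largest difference between the genotypes among the 9 genes when averaged over the time points. Its log2 intensities in WT mice were 4.64, 4.85, 4.24 and 4.52 in control DRGs, 4.09, 4.76, 5.54 and 3.92 at day 2, and 5.06, 4.77, 4.47 and 4.32 at day 5. In KO mice they were 4.28, 3.98, 3.57 and 4.43 in control DRGs, 4.49, 3.45, 4.22 and 3.83 at day 2, and 3.25, 4.23, 3.40 and 3.42 at day 5. At day 5 all 4 KO values were below all 4 WT values, an order held by 1.06% of all probes, while the genotypes overlapped in control DRGs and at day 2. KO minus WT was -0.50 in the controls, -0.58 at day 2 and -1.08 at day 5 (SE 0.31 each, limma adjusted p = 0.9999, 0.9997 and 0.9995). Averaged over time it was -0.72 (SE 0.18, 95% interval -1.10 to -0.34). The unadjusted p of 8.07e-04 became 0.941 after adjustment over 41174 probes. Without KO control replicate 4 the control difference was -0.61 and the average -0.75. At day 2 no KO sample and 2 of 4 WT samples were above background, and the difference there was -0.26 without WT day 2 replicate 3, the sample at 5.54, and from -1.36 to -0.16 over the alternatives, so no fold is given for day 2. The sign was negative in all 6 within-slide comparisons of the genotypes (-1.44 to -0.40) and all 6 within-dye comparisons (-1.17 to -0.38). These re-use the samples of the average, and like those of *Gzmb* and *Nkg7* they were made because the p was small. So they add no independent support, and on slide 2 the control comparison was 1 sample against 1. The difference stayed negative under each of the 14 alternative settings. Its size ran from -0.17 with normexp background correction to -1.49 with Feature Extraction's processed signals. The *Gzma* probe A_51_P162794 lies on chromosome 13 from 113885986 to 113886045 (mm9), the chromosome that also carries *Nfil3* (53062585 to 53062644 for its brighter probe). Whether the shared chromosome bears on the *Gzma* values was not tested.

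*Gzmb* read 3.24 to 3.88 in KO controls and 3.89 to 4.42 in WT controls, without overlap (0.534% of all probes were lower in this way). Since 1 of 4 KO and 0 of 4 WT controls were above background, these are values near the background and no fold is given. The fitted difference was -0.74 (unadjusted p = 0.0127, adjusted p = 0.9999), -0.88 without KO control replicate 4, and from -0.76 to -0.096 over the alternatives. At day 2 it was -0.01. *Klrk1* went the other way in control DRGs, where all 4 KO values (4.15 to 4.47) lay above all 4 WT values (3.64 to 4.04), as for 0.643% of all probes, with a difference of 0.48 (adjusted p = 0.9999). The unadjusted limma p of this difference was 0.171. None of these WT samples and 2 of 4 KO samples were above background, so no fold is given for *Klrk1* either. The second *Klrk1* probe, never above background, had a difference of -0.44 in control DRGs, in the opposite direction.

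Sequences are shown for the genes on which the results turn, *Gzmb* and *Nkg7*, which passed at day 5, and *Gzma*, which had the smallest p for the genotype. The probe that measured *Gzma* and, for comparison, the *Cd8a* probe that was bright where the other *Cd8a* probes were not, are each 60 bases long and can be read without a stop codon in 1 and 2 of the 3 forward frames.
Gzma probe: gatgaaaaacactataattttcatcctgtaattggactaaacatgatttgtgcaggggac
Cd8a probe: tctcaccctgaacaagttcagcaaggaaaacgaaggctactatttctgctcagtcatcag

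The promoters of *Gzmb*, *Nkg7* and *Gzma*, from 250 bases before to 50 after the start of transcription, were read from RefSeq (GRCm38.p6). Capitals mark matches, on either strand, to the letters of 4 motifs, which were TTACGTAA or TTATGTAA for NFIL3, TGAGTCA or its reverse complement TGACTCA for AP-1, TGACG as the core of the cyclic AMP response element (CRE), and TGTGGTT for Runx. The second AP-1 spelling and the CRE core share their first letters, and no match printed here overlapped another.
Gzmb promoter, chr14:56262285-56262584, minus strand: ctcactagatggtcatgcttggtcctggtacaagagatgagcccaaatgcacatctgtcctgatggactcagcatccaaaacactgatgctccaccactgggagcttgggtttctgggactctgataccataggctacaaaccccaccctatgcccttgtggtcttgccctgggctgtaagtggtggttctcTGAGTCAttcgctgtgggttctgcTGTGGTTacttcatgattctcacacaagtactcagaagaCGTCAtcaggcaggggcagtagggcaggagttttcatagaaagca
Nkg7 promoter, chr7:43436888-43437187, plus strand: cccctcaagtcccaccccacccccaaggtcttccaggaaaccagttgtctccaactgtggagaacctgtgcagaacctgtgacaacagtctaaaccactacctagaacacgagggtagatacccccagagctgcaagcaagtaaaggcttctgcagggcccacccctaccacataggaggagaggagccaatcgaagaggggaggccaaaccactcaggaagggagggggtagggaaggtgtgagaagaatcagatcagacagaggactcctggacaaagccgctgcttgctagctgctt
Gzma promoter, chr13:113100932-113101231, minus strand: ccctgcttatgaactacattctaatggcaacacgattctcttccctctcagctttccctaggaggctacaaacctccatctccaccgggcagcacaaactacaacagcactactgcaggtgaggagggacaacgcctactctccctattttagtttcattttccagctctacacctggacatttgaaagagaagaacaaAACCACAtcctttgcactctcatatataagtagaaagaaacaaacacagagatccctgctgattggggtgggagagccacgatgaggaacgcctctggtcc

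*Gzmb* held an AP-1 match and a Runx match before its start and a CRE core after it, *Gzma* a Runx match on the other strand, and *Nkg7* none of the 4 motifs. The NFIL3 letters occurred in 0 of the 9 member promoters and in 1.06% of all 32851. AP-1 letters occurred in 2 of the 9 (5.2% of all), the CRE core in 3 (20.8%) and Runx in 4, *Gzma*, *Gzmb*, *Klrk1* and *Ncr1* (5.27%). A match in this window is a description and no measure of binding.

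Other markers of the same cells were taken from fixed lists, each gene by its brightest probe. The counts of these lists stand beside 22.2% of all probes called at day 5 and 21.2% at day 2, in either direction. Of 12 further NK cell markers, 7 were above background in at least 12 samples and 3 in none (*Klrc1*, *Klrg1* and *Klra8*). *Eomes*, a transcription factor of mature NK cells, was above background in 1 sample. At day 5 *Klrd1*, the partner chain of NKG2 receptors, rose by 0.55 (adjusted p = 0.00576) and *Il2rb*, the receptor chain shared by interleukins 2 and 15, by 0.58 (adjusted p = 0.00167), and no NK marker fell. At day 2 *Il2rb*, *Cd244* and *Cd7* rose, by 0.36, 0.48 and 0.39. *Tbx21*, for the transcription factor T-bet of NK and T cells, rose at day 2 within KO mice, by 0.87 (adjusted p = 0.0148), with -0.06 within WT mice (adjusted p = 0.924), but the interaction did not pass (adjusted p = 0.99998). *Ccl5*, a chemokine of activated T and NK cells, passed the F test (adjusted p = 0.0226) with -0.47 at day 2 and 0.56 at day 5, where neither day passed alone. The list median at day 5 was 0.40. The probe annotated as *Klrb1c*, the gene of NK1.1, gave group means from 14.22 to 14.55 that did not follow the lesion (adjusted p = 0.501) or the genotype (adjusted p = 0.941), beside the background values of *Ncr1*, *Klra8* and *Eomes* in the same samples. This probe dominated the summed level of the list, and whether it measured *Klrb1c* was not tested.

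Of 12 further T cell markers, 10 were above background in at least 12 samples, but at day 5 0 rose and 0 fell. *Cd6* fell by 0.53 at day 2, and *Cd5* passed only the F test (adjusted p = 0.0281). *Cd3d*, the third CD3 chain, was above background in all 24 samples and differed by 0.38 at day 5 (adjusted p = 0.0841). Among 10 B cell markers *Cd79b*, a chain of the B cell receptor, rose by 0.82 at day 2 and 0.75 at day 5, and *Cd22* by 0.58 at day 5. *Ms4a1* differed by -0.04 at day 5, and *Pax5*, which defines the B cell lineage, was above background in 0 samples. The list medians at day 5 were 0.13 for T cells and 0.03 for B cells.

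Of 17 other genes of the cytotoxic granule and its release, 3 rose and 2 fell at day 5, beside 22.2% of all probes called in either direction. *Ctsc*, for the protease that activates granzymes, rose by 1.24 (adjusted p = 9.73e-07), *Stx11* by 0.85 and *Lyst* by 0.31, while *Serpinb9*, for an inhibitor of granzyme B, fell by 0.37 and *Rab27a* by 0.39. *Gzmc*, *Gzme*, *Gzmf*, *Gzmg* and *Gzmk* were above background in 0 samples. The NKG2D receptor gene *Klrk1* stayed near background, whereas 5 of 6 of its ligand and adapter genes on the array rose at day 5. The adapters *Tyrobp* and *Hcst* rose by 1.69 and 0.90. The ligands *Raet1a* and *Raet1e* rose by 0.73 and 1.29. *Ulbp1* was well above background in 4 samples only and differed by 1.28 (adjusted p = 0.0348). Of 13 genes of NK development and interleukin 15 signalling, 5 rose and 1 fell, with *Gata3* among the 5 although its probe was above background in 0 samples. *Stat5a* rose by 1.18 and *Stat5b* by 0.79, and *Id2*, a regulator of NK differentiation that neurons express as well, fell by 0.76. *Il15* itself differed by -0.23 (adjusted p = 0.130). Of 11 lymphocyte chemoattractants and their receptors 4 rose, among them *Cxcl16* by 1.15, *Cxcr6* by 0.85 and *Cxcr3* by 0.79. None of the genes in these lists passed for KO against WT at any time point or for the interaction.

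Markers of leukocytes in general and of macrophages also rose at day 5, while those of neutrophils and mast cells did not pass. All 10 pan-leukocyte and macrophage markers rose at day 5, by 1.18 for *Cd14* to 1.89 for *Emr1*, with a median of 1.45. Their summed intensity was 9061 to 14449 in WT controls and 26549 to 39416 at day 5, and 10241 to 13493 and 25120 to 34449 in KO mice, so controls and day 5 did not overlap. *Lyz2* was the brightest of the 10 markers, with group means from 13.03 to 14.41 on the log2 scale, so it weighed most in this sum. All 10 were above background in all 24 samples. *Tyrobp*, *Hcst*, *Ctsc* and *Itgam* are expressed by macrophages too. Of 8 neutrophil and mast cell markers 0 passed, and of 3 red blood cell genes 0. The summed intensity of the former was 17184 to 39076 in WT controls and 6939 to 75857 at day 5, and 10997 to 32544 and 31535 to 80708 in KO mice, so the groups overlapped in both genotypes. The part of these cells in the *Gzmb* and *Nkg7* differences was not tested.

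**Figure D3:**
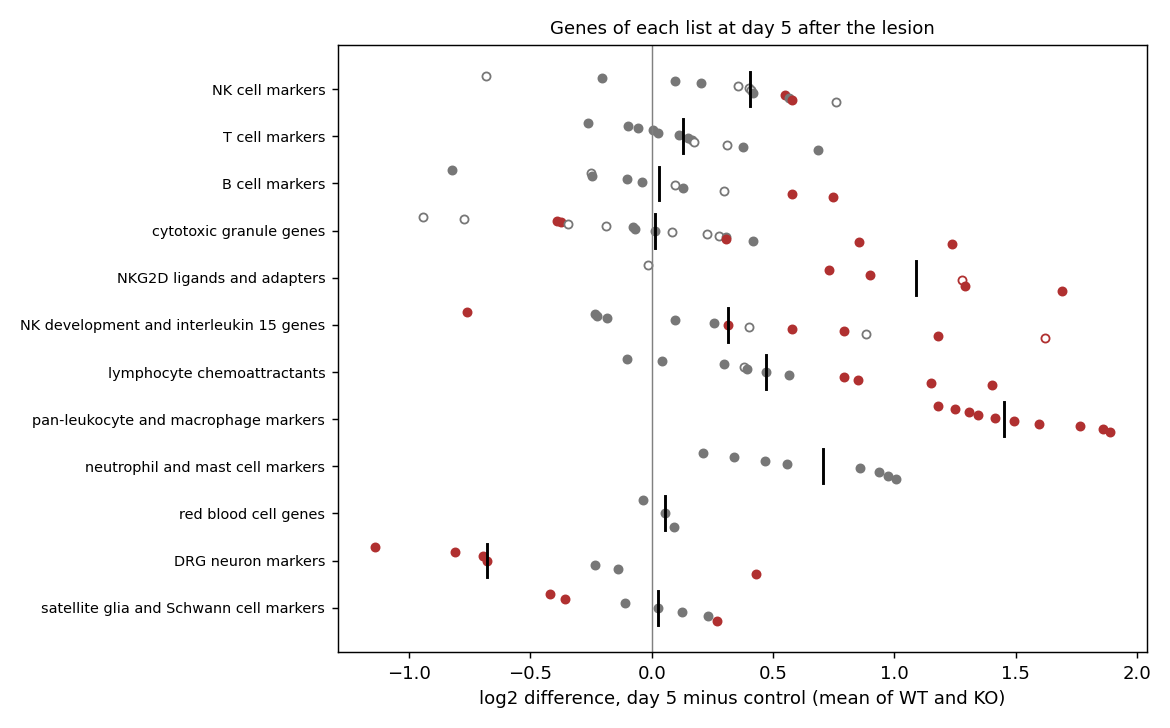
Log2 difference of day 5 minus control, averaged over WT and KO (x axis), for the genes of each list (y axis), filled for probes above background in at least 12 samples, red where the adjusted p was under 0.05, and with the list median as a black bar. All 10 pan-leukocyte and macrophage markers are red and above 1, while 2 of 12 NK and 0 of 12 T cell markers are red.

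For the 3 members above background in at least 12 samples, the genes with the most similar pattern were sought among 17573 gene names that passed the same limit, by Pearson's r of the log2 intensity over the 24 samples. *Nkg7* was most like *Hcst* (r = 0.87), *Akna* (0.85) and *H2-Oa* (0.85), and within groups, after subtraction of the group means, these had 0.83, 0.77 and 0.76. *Cd3e* was most like *Polr2a* (0.88), the transcript NAP030859-1 (0.85) and the olfactory receptor *Olfr319* (0.85). *Cd8a* was most like *Rnase1* (0.88), *Cyp2c37* (0.87) and the olfactory receptor *Olfr103* (0.87). The 9 members were left out of this search, and no other T cell marker was among the 3 genes most like *Cd3e* or *Cd8a*. With each other *Cd3e* and *Cd8a* had r = 0.70, and 0.65 within groups. *Cd3g*, mostly at background, had r = 0.05 with *Cd3e* and -0.13 with *Cd8a*. Whether the bright *Cd3e* and *Cd8a* probes measured T cell transcripts was not tested. The 24 values share arrays, slides and dyes, so these correlations are given as descriptions.

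**Figure D4:**
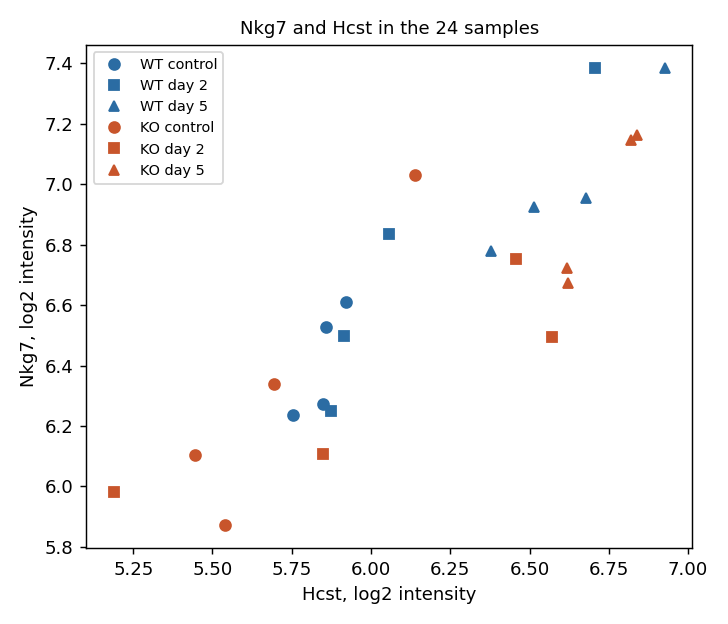
Log2 intensity of *Nkg7* (y axis) against *Hcst* (x axis), 1 point per sample, WT in blue and KO in orange, with circles for control, squares for day 2 and triangles for day 5. The points rise together (r = 0.87), and the highest *Nkg7* value, 7.39, is a WT sample of day 5.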

How the data were processed

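RNA of L4 and L5 DRGs was measured in 24 samples (6 groups of 4, with n given per genotype and condition in the methods). The authors deposited Agilent Feature Extraction output, with foreground, background and processed intensity per spot and channel, not normalized. The members, lists and tests were chosen with earlier results of these data known. In R 4.3.3 with limma 3.58.1 and statmod 1.5.0, mean foreground and median background were combined by the Edwards correction on 45018 spots. Control spots were dropped, the 24 channels were quantile normalized on a log2 scale, outlier spots were left out, and spots of a probe were averaged. Between 54.5% and 72.3% of probes were well above background in a sample, and 0 spots were saturated. A model with a mean for each of the 6 groups was fitted by lmFit, moderated by eBayes and adjusted by Benjamini-Hochberg over 41174 probes. The code was tested on simulated data. Each gene was named by its brightest probe. From a list, up to 4 genes with the smallest lesion p among probes above background in at least 12 samples were named, and its defining genes near background. *Cd244*, *Klrb1c*, *Tbx21*, *Ms4a1*, *Rab27a*, *Ulbp1*, *Gata3*, *Il15*, *Cxcr6*, *Cd14* and *Itgam* were named after their values were seen. Slides held 3, 3 and 6 WT samples and 5, 5 and 2 KO samples, and each group had 2 samples per dye. Alternatives were other background corrections, processed signals, median foreground, loess with Aquantile, outlier spots kept, a filter for 4 samples above background, dye, slide, replicate number, array or array partner in the model, an intensity trend, and each sample left out. The version without 4 controls was added after seeing the data. Some genes of the lists are counted but not reported here by name.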

Additional observations from a re-analysis of the deposited data

Results flagged for a closer look

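In 3 of 54 groups of 4 samples (9 genes in 6 groups) 1 sample lay far from the other 3, by Dixon's 95% limit, which chance exceeds in about 1 of 20 groups. *Gzmb* in the library labelled KO control replicate 4 was 3.88, against 3.24 to 3.34 in the other KO controls. *Ncr1* in the same library was 0.60, against 3.70 to 3.98, all below background. *Gzmb* in KO day 2 replicate 2 was 5.15, against 3.97 to 4.001.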

How the results depend on the processing

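The limits are these. Most members lay near background, where the background correction sets the size of a difference, and the slides held unequal numbers of WT and KO samples. Where the labels do not tie control ganglia to mice, the pairing of sides within a mouse was not analysed here. The filter for 4 samples above background left *Cd3g* and *Ncr1* untested. Of 14 member probes, those passing the F test of the lesion numbered 1 without background correction. Those passing at day 5 in KO mice numbered 0 without background correction, with normexp, with processed signals, with median foreground and, as chosen after seeing the data, without the 4 controls hybridised together with lesioned tissue. Those passing at day 2 in KO mice numbered 1, *Gzmb*, with loess and Aquantile, with the filter, with the array as a random block and with the array partner as a block. With 1 sample left out these counts ran from 1 to 3 for the F test, 0 to 1 for KO mice at day 2 and 0 to 2 for KO mice at day 5. *Gzmb* at day 5 in KO mice was lost without KO control replicate 1, 2 or 3 or KO day 5 replicate 2, 3 or 4 (0.87 to 0.97, adjusted p from 0.0526 to 0.0771). The cause of these changes was not tested.

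None of the differences that turned sign was called. With processed signals KO minus WT was -0.0044 for *Cd8a* and 0.015 for *Ncr1* (-0.60 as reported), and *Ncr1* at day 5 was -0.11 (0.39 as reported). KO minus WT was 0.0022 for *Cd3e* with median foreground. With the slide as a block it was -0.11 for *Cd8a* and 0.011 for *Prf1*. For *Prf1* it was 0.0094 with loess and Aquantile and 0.019 without the 4 controls, where *Gzma* at day 5 was 0.0080. *Klrk1* at day 5 was -0.0081 with the array as a random block. With 1 sample left out, KO minus WT ran from -0.072 to 0.032 for *Cd3e*, -0.014 to 0.10 for *Cd8a* and -0.19 to 0.068 for *Prf1*, and the day 5 difference from -0.013 to 0.56 for *Ncr1* and -0.044 to 0.12 for *Klrk1*.

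Replicate numbers follow the dye (2 numbers per dye). Over 60 pairs of samples with the same number, deviations from the group means correlated with a median r of 0.07 (-0.06 to 0.21). Once the dye was removed the median was -0.05. Many of these pairs join WT with KO samples, which cannot come from 1 mouse. So these medians cannot decide whether a number marks the sides of 1 mouse. With a replicate block 2 probes passed the F test, 1 passed at day 5 in KO mice, and *Gzmb* at day 5 averaged over the genotypes was 0.74 (limma adjusted p = 0.0102).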
